A study of Bos taurus with 21 samples.

Results

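The comparison describes what changed in foetal bovine muscle between 210 and 260 days post conception (dpc), the last interval sampled before birth. It used the 11 arrays of these stages out of the 21 arrays of the series, chosen by their gestational stage label alone. At 210 dpc there were 3 Blonde d'Aquitaine (BA) and 3 Charolais (CH) foetuses. BA is a muscular French breed, and its muscularity is partly attributed to a mutation of the myostatin gene *MSTN*. The study states that its BA foetuses were not genotyped for this mutation. CH served as the comparison breed. At 260 dpc there were 2 BA and 3 CH foetuses. The 210 dpc foetuses were 2 females and 1 male in BA and 1 female and 2 males in CH, and the 260 dpc foetuses were 2 females in BA and 1 female and 2 males in CH. The BA foetuses at 260 dpc had 1 sire, as had the CH foetuses at 210 dpc, and each of the other groups came from 2 sires. Each array was hybridized with labelled RNA of 1 untreated foetus obtained by artificial insemination within its breed. The sample labels name the muscle *m. Longissimus thoracis* and the study's text names *m. Semitendinosus*, so the muscle is not settled here.

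Skeletal muscle fibres form in the foetus with embryonic and foetal versions of the contractile proteins and later replace them by fast or slow adult versions. In cattle the number of fibres is set well before birth, and the last weeks of gestation are a time of contractile and metabolic differentiation. Adult fibres contract with a myosin motor switched on by calcium through troponin and tropomyosin, and draw ATP from creatine phosphate, glycolysis and mitochondria. Dividing myoblasts and an abundant foetal matrix belong to the earlier part of this course.

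Every level below is the log2 intensity of 1 probe less the 75th percentile of its array, so that 0 is the 75th percentile of all probes. A difference is 260 minus 210 dpc with breed as a covariate, given with its standard error (SE). A gene was called when its Benjamini-Hochberg adjusted p in limma was under 0.05 over 30881 tested probes. Each gene is represented by its brightest tested probe, which gave 10204 genes. Levels of different genes come from different probes and are not compared with each other.

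The defining markers of skeletal muscle were present on all 11 arrays. The creatine kinase *CKM*, the actin *ACTA1*, the myosin light chain *MYL1* and the troponin *TNNT3* were well above background throughout, and *TTN* was not tested. Their summed level, in multiples of the 75th percentile intensity, was 715 to 940 at 210 dpc and 1230 to 1620 at 260 dpc. The arrays were on 4 slides, and slide 6 held 2 of the 210 dpc arrays and none of 260 dpc. The 75th percentile intensity was 652.3 to 1174 at 210 dpc and 524.9 to 668.9 at 260 dpc, and the arrays had 29017 to 34223 probes above background by the scanner software's stricter flag, called well above background here. No spot was marked as saturated.

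Between 210 and 260 dpc, 2081 genes rose and 2050 fell, which is 20.4% and 20.1% of the genes tested. The median difference over all genes was -0.0024. Counted by probe, 5828 rose (18.9%) and 5641 fell (18.3%). Of the called genes, 272 rose and 402 fell by more than 1 on the log2 scale. All 4131 called genes had the same sign in both breeds. The call was made on both breeds together, which favours a shared sign, so this is not separate evidence. The 260 and 210 dpc arrays did not overlap in 2752 genes, or 27% of those tested. On the first principal component, which held 42.5% of the variance, the 210 dpc arrays lay between -50.3 and -37.5 and the 260 dpc arrays between 37.2 and 62.2. The split between higher and lower probes depends on the scaling. Of the called probes 50.8% were higher here, against 64.8% with each array scaled to its median, 62.9% with normexp background correction, and 7.48% with the deposited value table, which is not scaled between arrays. The median gene differed by -0.41 in that table. Differences below are therefore relative to the typical gene.

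Several of the largest rises were in genes of known metabolic role. *COQ8A*, needed for the synthesis of coenzyme Q, had levels of 2 to 3.42 at 210 dpc with a median of 2.58. At 260 dpc its levels were 5.43 and 5.56 in BA and 5.64, 5.68 and 6.41 in CH. The stages did not overlap, and the difference was 3 (SE 0.2, adjusted p 1.2e-05), an 8.01-fold rise. *GPD1*, which links glycolysis to glycerol phosphate, went from 2.74 to 3.92 (median 3.44) to 5.86 and 5.93 in BA and 5.86, 6.19 and 6.29 in CH, a 6.27-fold rise. *CKMT2*, the creatine kinase of muscle mitochondria, was at 0.59 to 1.73 (median 1.13) at 210 dpc. It was at 3.71 and 3.5 in BA and 3.46, 4.23 and 4.16 in CH at 260 dpc. All 5 late arrays were above all 6 earlier ones, and the rise was 6.14-fold (difference 2.62, SE 0.19, adjusted p 1.6e-05).

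The list of the 12 largest rises also held *CTXN3* (difference 3.58), the alkyl thiol methyltransferase *TMT1A* (3.11), *UNC93A* (2.93), *YIPF7* (2.92), *CD164L2* (2.86), the protease inhibitor *CST6* (2.27), the leucine-rich repeat gene *LRRC2* (2.24) and the slow sarcomere genes *TNNT1* and *TPM3*. Stages that do not overlap were a condition for this list, *COQ8A*, *GPD1* and *CKMT2* included, and for that of the largest falls. The lack of overlap of these genes is therefore no added evidence. *CTXN3* was well above background on only 3 of the 6 arrays at 210 dpc, so its 11.9-fold difference rests partly on dim spots. *CTXN3* had been higher earlier, with a mean of -0.39 at 110 dpc against -3.66 at 180 dpc, -4.75 at 210 dpc and -1.12 at 260 dpc.

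Among the largest falls, *F2*, which encodes prothrombin, was at 2.52 to 3.17 at 210 dpc with a median of 2.91. At 260 dpc it was at -0.88 and -0.67 in BA and -0.05, -0.42 and -2.02 in CH. It fell 12.6-fold (difference -3.65, SE 0.3, adjusted p 2.6e-05) after stage means of 2.47 and 3.07 at 110 and 180 dpc. *HS3ST2*, a heparan sulphate sulphotransferase, fell from 2.84 to 3.92 (median 3.61) to 0.11 and 0.76 in BA and 0.75, 1.05 and 0.42 in CH, although 1 of its 3 probes was called. *SPP1*, the matrix protein osteopontin, fell by 2.71 and the cytokine gene *IL17B* by 3.12.

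Several genes with large falls were below the flag at 260 dpc, so only a bound can be given. *SOSTDC1*, a secreted antagonist of BMP and Wnt signals, was well above background on all 6 arrays at 210 dpc and on none of 5 at 260 dpc, and was at least 3.98-fold lower. In the same way the cholecystokinin receptor *CCKAR* was at least 3.73-fold and the Wnt inhibitor *NKD1* at least 3.41-fold lower. *STXBP5L*, measured on 5 of 6 arrays at 210 dpc, was at least 2.47-fold lower. These bounds set the mean at 210 dpc against the lowest level well above background on each late array. *ILDR1* (difference -3.93) and *LRFN5* (-2.86) were well above background on 1 of 5 arrays at 260 dpc and *TMEM130* (-3.22) on 3. In all, 16 of the 10204 genes tested went from 6 of 6 arrays to none of 5, and none went from none of 6 to 5 of 5. The late arrays were dimmer, with 75th percentile intensities of 524.9 to 668.9 against 652.3 to 1174. The flag is set on unscaled intensity, so a loss of the flag was easier than a gain, and these counts are not compared. *CCDC141*, well above background on all arrays, fell by 2.99.

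**Figure D1:**
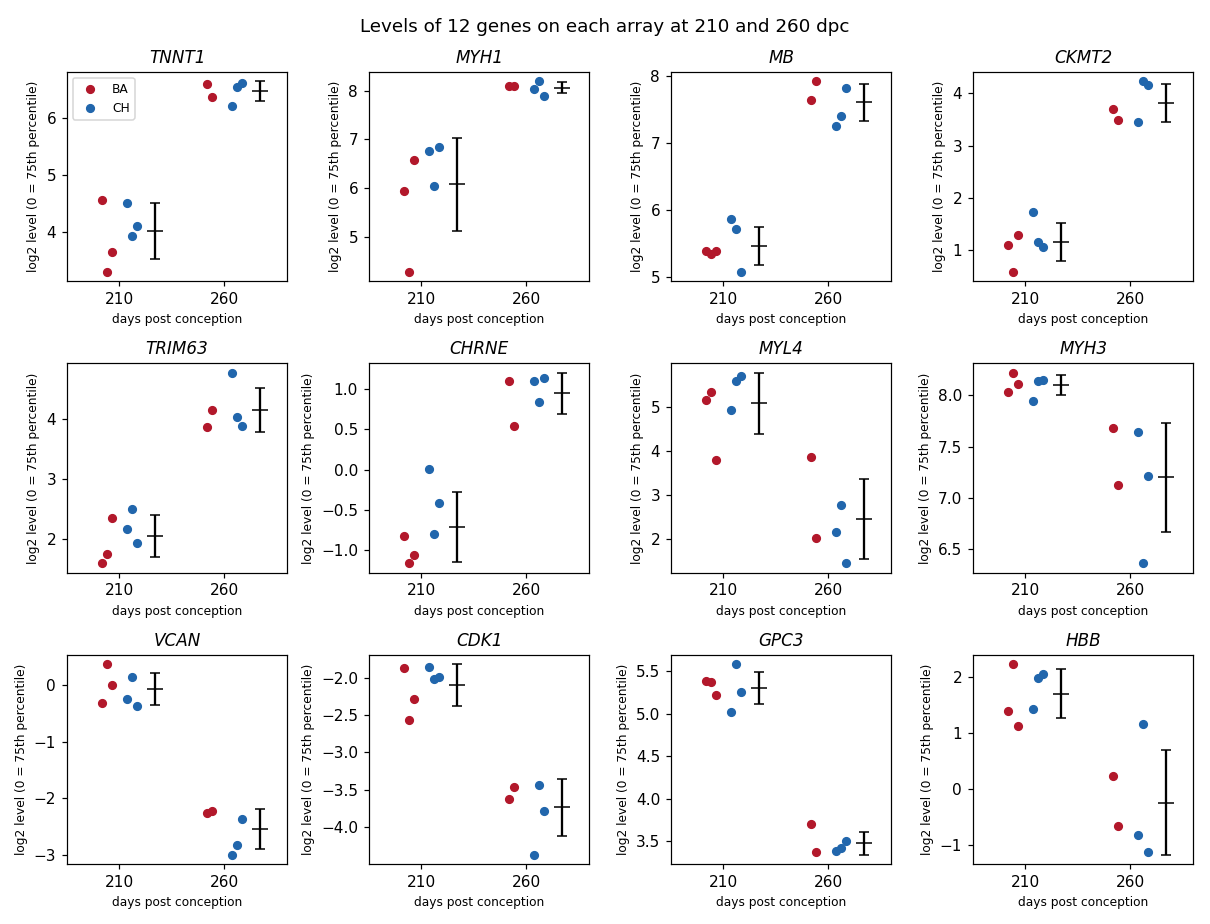
Log2 level (0 is the 75th percentile of the array) of 12 genes on each of the 11 arrays at 210 and 260 dpc, with BA in red and CH in blue and the mean with its SD to the right of each stage. The stages are apart in all but *MYL4* and *HBB*, where 1 late array of each lies within the range of the 210 dpc arrays.

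The contractile genes moved as groups. Of 11 tested genes of fast fibres 10 rose and none fell, and of 11 of slow fibres 9 rose and none fell, against 20.4% and 20.1% of all genes. The median differences were 0.86 and 0.89. Among 12 genes of the developmental contractile apparatus and young fibres, 9 fell and 1 rose, with a median of -0.9. These medians kept their sign under quantile normalization (0.4, 0.47 and -1.19), where the fast and slow lists held 6 and 8 rises. They also kept it in the unscaled value table (0.44, 0.48 and -1.32).

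Slow fibre genes held the larger single changes. *TNNT1*, the troponin T of slow fibres, was at 3.29 to 4.56 (median 4.01) at 210 dpc and at 6.61 and 6.38 in BA and 6.21, 6.55 and 6.62 in CH at 260 dpc. It rose 5.48-fold (difference 2.46, SE 0.22, adjusted p 3.7e-05). *TNNC1*, the troponin C of slow and cardiac muscle, rose 4.37-fold from 6.27 to 7.5 to 8.89 to 9.29. *TPM3*, slow tropomyosin, rose 4.8-fold, with 4.84 and 4.88 the highest values at 210 dpc and 6.43 the lowest at 260 dpc. *MYH7*, the slow myosin heavy chain, went from 6.41 to 7.62 to 8.4 to 8.54 (difference 1.44). The slow light chain *MYL3* rose by 1.73 (SE 0.44), with stages that overlapped.

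Fast fibre genes rose too. *MYH1*, the heavy chain of type IIX fibres, was at 4.29 to 6.85 (median 6.31) at 210 dpc. At 260 dpc it was at 8.1 and 8.09 in BA and 8.03, 8.19 and 7.9 in CH, a 3.82-fold rise (difference 1.93, SE 0.37, adjusted p 0.0024). The late arrays differed from each other far less than the early ones, among which BA replicate 2 was lowest. The stage means of *MYH1* were -1.47 at 110 dpc and 1.44 at 180 dpc. The Z-disc protein *MYOZ1* rose by 1.58, the fast alpha-actinin *ACTN3* by 1.52 and the IIA heavy chain *MYH2* by 1.17. The fast light chain *MYL1* rose by 0.3 (adjusted p 0.04), and its sign turned to -0.18 under quantile normalization and -0.12 in the unscaled table. The calcium buffer parvalbumin, *PVALB*, differed by -0.48 and did not pass.

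Among developmental genes, *MYL4*, the embryonic and atrial light chain, was at 3.8 to 5.71 (median 5.25) at 210 dpc. At 260 dpc it was at 3.87 and 2.03 in BA and 2.18, 2.79 and 1.46 in CH. BA replicate 1 thus lay within the earlier range, and the difference was -2.63 (SE 0.45, adjusted p 0.0012). *MYH3*, the embryonic heavy chain, went from 7.95 to 8.22 (median 8.12) to 7.68 and 7.12 in BA and 7.64, 6.36 and 7.21 in CH, with no overlap (difference -0.88, SE 0.21). Its stage means had been 8.09, 8.03 and 8.1 at 110, 180 and 210 dpc. The perinatal heavy chain *MYH8* fell by 0.76, the cardiac and foetal troponin *TNNT2* by 1.26 and the intermediate filament nestin, *NES*, by 1.72. *MYMK*, which myoblasts need to fuse, fell 3.32-fold. *MYBPH* was the gene of this list that rose (0.78, adjusted p 0.044), and it lost its call in 19 of the alternatives, slide as a block and quantile normalization among them.

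The framework of the sarcomere followed the adult genes, with 16 of 20 Z-disc and thin filament genes higher, none lower, and a median of 0.82, and 10 higher under quantile normalization. *LDB3*, a Z-disc scaffold, rose by 1.5 (SE 0.092) and *TMOD4*, which caps thin filaments, by 1.35, and the Z-disc protein *MYOT* rose by 1.18. Of 22 genes of excitation and calcium handling 17 rose and none fell (median 0.67). *PLN*, which restrains the slow calcium pump, rose 4.16-fold, the chloride channel *CLCN1* by 1.46, the calsequestrin *CASQ1* by 1.42 and the release channel *RYR1* by 0.76. In the dystrophin complex 6 of 11 rose and none fell, with the dystrobrevin gene *DTNA* up by 1.45. In this complex 5 rose and 1 fell under quantile normalization, and 2 rose and 1 fell in the unscaled table.

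At the nerve contact the adult and foetal subunits of the acetylcholine receptor went opposite ways. *CHRNE*, the adult subunit, was at -1.16 to 0.008 (median -0.81) at 210 dpc and at 1.1 and 0.54 in BA and 1.1, 0.84 and 1.13 in CH at 260 dpc, a 3.05-fold rise. *CHRNG*, the foetal subunit that it replaces, fell 1.9-fold (difference -0.92, adjusted p 0.0041), with CH replicate 1 at 4.06 within the earlier range of 3.89 to 4.68. Of 10 tested junction genes 1 rose and 4 fell. *ERBB3*, a neuregulin receptor also expressed by Schwann cells, fell by 1.71.

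**Figure D2:**
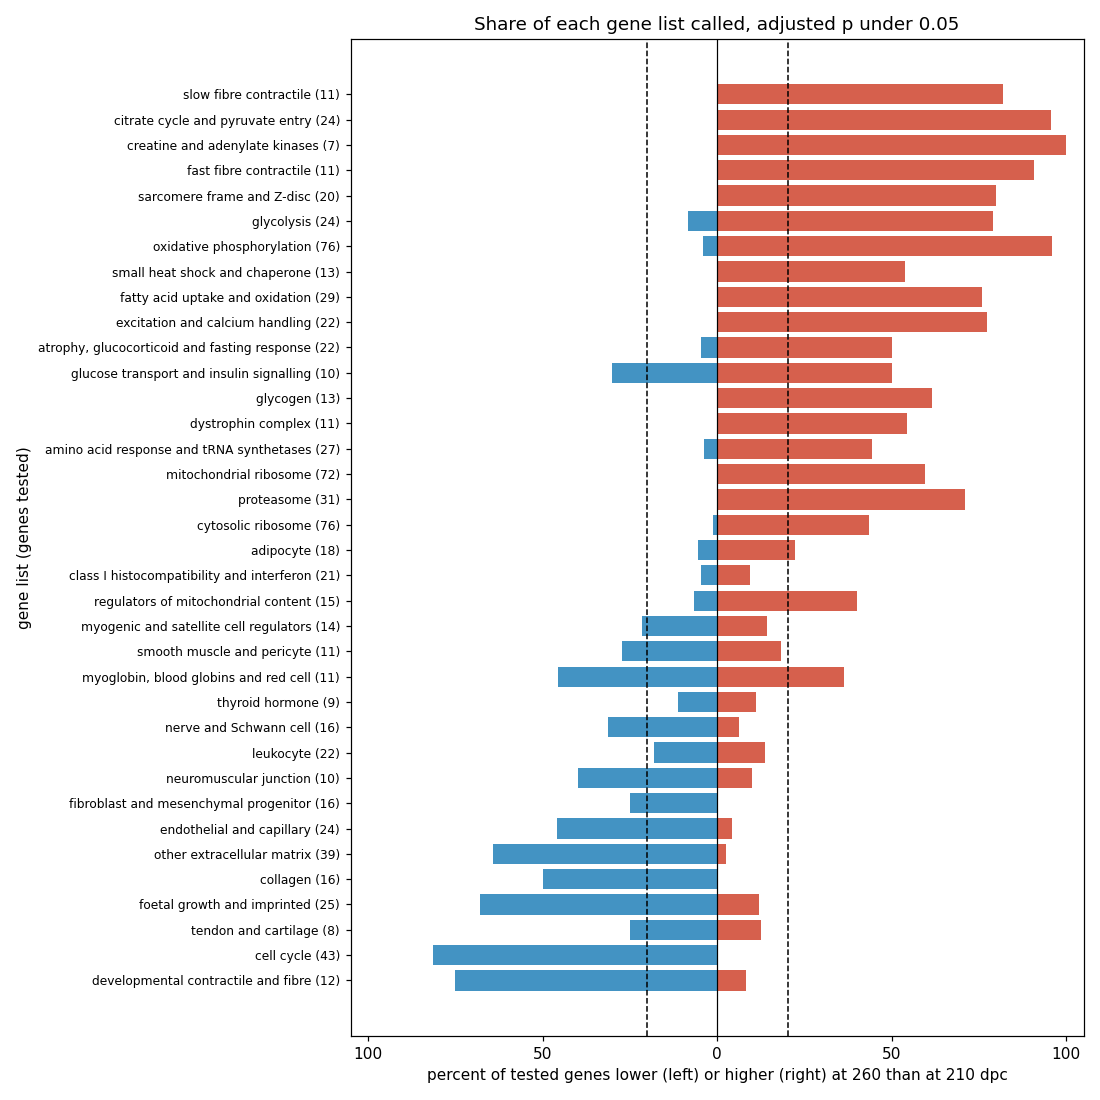
Percent of the tested genes of 36 gene lists that were called higher (red, right) or lower (blue, left) at 260 than at 210 dpc, ordered by the list's median difference. Dashed lines mark the share over all genes, 20.4% higher and 20.1% lower.

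Energy metabolism rose broadly. Of 76 tested genes of oxidative phosphorylation 73 rose, with a median of 0.77, and 71 had stages that did not overlap. Over all genes 20.4% rose and 27% had stages that did not overlap. All 36 tested subunits of complex I rose (differences 0.46 to 0.98, median 0.76), as did 4 of 4 of complex II, 8 of 8 of complex III, cytochrome c, and 16 of 16 of the ATP synthase (median 0.69). *NDUFV1* of complex I rose by 0.98, *SDHB* of complex II by 1.16 and *ATP5MC1* of the ATP synthase by 1.22. Under quantile normalization 60 of the 76 rose and 3 fell, and 17 rose and 3 fell in the unscaled table.

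The exceptions were in complex IV, where 8 of 11 rose and 3 fell. The 3 that fell were *COX7A2* (-0.41), *COX6A1* (-0.35) and *COX8A* (-0.32), the subunit forms that most tissues use. Their partners of heart and skeletal muscle rose, namely *COX7A1* (1.44), *COX6A2* (0.64) and *COX8B* (1.22). *COX7A1* was at 4.9 to 5.34 (median 5.09) at 210 dpc and at 6.53 and 6.42 in BA and 6.13, 6.95 and 6.76 in CH at 260 dpc. *COX7A2* and *COX6A1* lost their call with arrays scaled to the median (-0.32 with adjusted p 0.063, and -0.25 with adjusted p 0.064). *COX6A1* also lost it with slide or scan day as a block and without slide 6. *COX7A2* also lost it without CH replicate 2 at 210 dpc. In female foetuses alone none of the 3 kept its call.

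In the citrate cycle and pyruvate entry 23 of 24 genes rose and none fell (median 0.88). As many rose under quantile normalization, and 8 rose and none fell in the unscaled table. *GOT2*, the mitochondrial aspartate aminotransferase, went from 3.56 to 3.78 (median 3.66) to 5.28 and 5.43 in BA and 5.1, 5.57 and 5.57 in CH, a 3.3-fold rise (SE of the difference 0.1). *IDH2* rose by 1.33. Fatty acid uptake and oxidation had 22 of 29 genes higher and none lower (median 0.7), with lipoprotein lipase, *LPL*, up by 1.63 and the fatty acid carrier *FABP3* by 1.31. *CPT1B*, which admits long-chain fatty acids to mitochondria, differed by -0.0071 with an SE of 0.7, and its 3 probes did not move together.

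Glycolysis rose in the same interval, with 19 of 24 genes higher and 2 lower (median 0.78). *PKM*, pyruvate kinase, rose by 1.59, *PFKM*, the muscle phosphofructokinase, by 1.23 and lactate dehydrogenase *LDHA* by 1.24. The 2 that fell were *HK1* (-0.51) and the liver-type phosphofructokinase *PFKL* (-0.45). Under quantile normalization 15 genes of this list rose and 4 fell, and 11 rose and 4 fell in the unscaled table. *ALDOC* gave the second largest difference of this list (2.13), yet its 3 probes disagreed and 1 of them was called lower. Of 13 genes of glycogen metabolism 8 rose and none fell (median 0.44). They included the phosphorylase *PYGM* (1.48), glycogenin *GYG1* (1.18) and the synthase *GYS1* (0.89). All 7 tested creatine and adenylate kinase genes rose, and 6 did so under quantile normalization and 3 in the unscaled table.

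*MB*, myoglobin, which stores oxygen in fibres, was at 5.08 to 5.86 (median 5.39) at 210 dpc and at 7.64 and 7.92 in BA and 7.25, 7.4 and 7.82 in CH at 260 dpc, a 4.43-fold rise (difference 2.15, SE 0.17, adjusted p 2.2e-05). Of 15 regulators of mitochondrial content 6 rose and 1 fell (median 0.16). *PERM1* rose by 1.42, the nuclear receptor *ESRRA* by 0.95 and its coactivator *PPARGC1A* by 0.9, whereas *TFAM*, *NRF1* and *GABPA* differed by 0.1, -0.09 and -0.0061 and did not pass. *ETNPPL*, a phospholyase of the mitochondrion, rose 4.04-fold from a mean of -0.94 at 210 dpc. It was well above background on none of 5 arrays at 110 dpc and on 4 of 5 at 180 dpc.

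Glucose transport and insulin signalling had 5 rises and 3 falls among 10 genes. *SLC2A4*, the insulin-responsive transporter, rose by 0.53 (SE 0.14, adjusted p 0.013). *SLC2A1*, the transporter of most foetal cells, went from -0.53 to 0.0055 (median -0.4) to -1.54 and -1.44 in BA and -1.28, -1.18 and -0.66 in CH, a fall of 1.89-fold. *SLC2A3* fell by 0.81, a call lost with slide as a block and without slide 6. *SLC2A12* rose by 2.05 but was well above background on 1 of 6 arrays at 210 dpc.

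Genes that encode alternative forms of a protein were compared in 20 pairs, each with an adult muscle form and another form. In 18 pairs both were tested. The level of the adult form relative to the other was higher on every 260 dpc array than on every 210 dpc array in 14 pairs, lower on every one in 1 pair, and overlapped in 3. The adenine nucleotide carriers *SLC25A4* and *SLC25A5* went by 1.11 and -0.71, a relative change of 1.82 (SE 0.12). The acetyl-CoA carboxylases *ACACB* and *ACACA* went by 0.84 and -0.99, although *ACACA* was well above background on 3 of 5 late arrays.

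In other pairs the adult form alone passed the test. *ENO3* rose by 0.79 and *ENO1* differed by -0.13, *PGAM2* rose by 1.27 and *PGAM1* differed by -0.17, and *PYGM* rose by 1.48 while *PYGB* differed by -0.14. Of the non-muscle forms, 1 of the 4 probes of *PGAM1* was called in the opposite direction. *EEF1A2*, the elongation factor of adult muscle and neurons, rose 2.8-fold, from 1.39 to 2.14 (median 1.96) to 3.29 and 3.41 in BA and 2.96, 3.43 and 3.73 in CH. The brightest probe of *EEF1A1* differed by 0.027 and did not pass, and under quantile normalization it fell by 0.45. Of its 9 probes 7 were called lower, so its own change is uncertain.

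The exceptions were the creatine kinases, the calcium pumps, lactate dehydrogenase and alpha actin. *CKB*, the brain form, rose by 1.88 and *CKM* by 1.12, and 2 of the 6 probes of *CKB* were called lower. *ATP2A2*, the slow calcium pump, rose by 1.4 and *ATP2A1*, the fast pump, by 0.84. *LDHA* rose by 1.24. *LDHB* rose by 0.63 (adjusted p 0.041) and lost its call in 17 of the alternatives, among them slide as a block and quantile normalization. *ACTA1* rose by 0.66 and *ACTC1* differed by -0.058, with relative levels that overlapped between the stages.

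**Figure D3:**
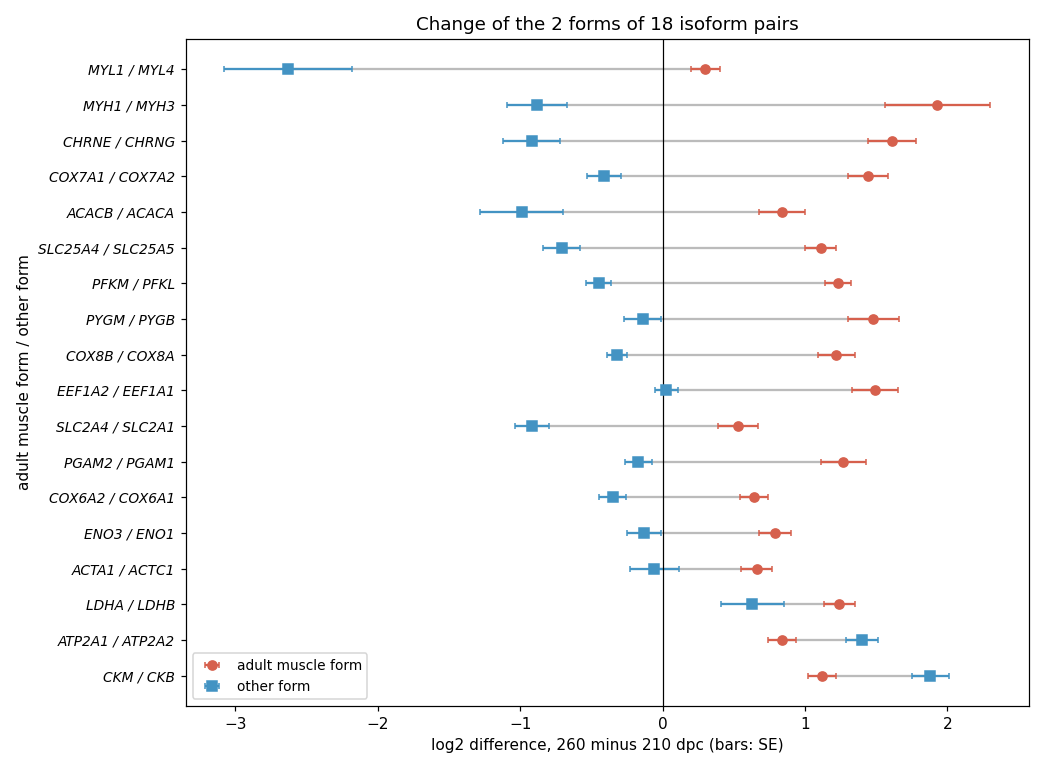
Log2 difference of 260 minus 210 dpc, with its SE, of the adult muscle form (red circle) and the other form (blue square) of 18 pairs of genes, ordered by the relative change. The adult form lies to the right in all pairs but *CKM* with *CKB* and *ATP2A1* with *ATP2A2*.

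Ribosomal genes depended on the scaling. Of 76 cytosolic ribosomal protein genes 33 rose and 1 fell with a median of 0.3, but under quantile normalization none rose, 22 fell and the median was -0.15, and in the unscaled table it was -0.12. Without the 2 arrays of slide 6, 6 rose. The gene that fell was *RPL3*, which went from 5.21 to 5.72 (median 5.61) to 4.61 and 4.46 in BA and 4.3, 4.95 and 4.84 in CH. Its difference was -0.9 (SE 0.14, adjusted p 0.00077), all 6 of its probes were called lower, and it fell under every scaling tried. *RPL3L*, the striated muscle paralogue of *RPL3*, named after its values were seen, rose from 3.37 to 4.41 (median 3.93) to 5.46 and 5.63 in BA and 5.32, 5.33 and 5.2 in CH. That is a 2.83-fold rise (difference 1.5, SE 0.18), and both of its probes rose.

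Mitochondrial ribosomal genes had 43 of 72 higher and none lower (median 0.38 here, 0.29 after quantile normalization and -0.033 in the unscaled table). Proteasome genes had 22 of 31 higher and none lower with a median of 0.32, but 9 rose and 1 fell after quantile normalization, 11 rose without slide 6, and the median was -0.091 in the unscaled table.

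Genes of cell division fell almost throughout. Of 43 tested, 35 fell and none rose, with a median of -0.87, against 20.1% lower over all genes, and between 33 and 38 fell under the 4 other scalings tried. *CDK1*, the kinase that drives entry into mitosis, was at -2.57 to -1.86 (median -2.01) at 210 dpc and at -3.63 and -3.46 in BA and -4.37, -3.44 and -3.78 in CH at 260 dpc. It fell 3.11-fold (difference -1.64, SE 0.19, adjusted p 0.00014). The ubiquitin-conjugating enzyme *UBE2C* fell by 1.6 and the cyclin *CCNB1* by 1.59. *KIF11*, a spindle motor, fell by 1.81 and was well above background on 1 of 5 arrays at 260 dpc. Of the 43 genes, 39 were well above background on all 5 late arrays. In such bulk tissue fewer cells of a type and less RNA per cell cannot be told apart.

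Foetal growth and imprinted genes fell in 17 of 25 cases and rose in 3 (median -0.65). *GPC3*, a glypican that restrains foetal growth, went from 5.02 to 5.58 (median 5.32) to 3.7 and 3.37 in BA and 3.38, 3.42 and 3.5 in CH, a 3.55-fold fall (SE of the difference 0.11). *NNAT* fell 4.19-fold, *PEG10* by 1.53 and *DLK1*, whose excess enlarges muscle in sheep, by 1.51. The 3 that rose were *GRB10* (1.02), *H19* (0.73) and *IGF2* (0.33, adjusted p 0.025). The sign of *IGF2* turned to -0.16 under quantile normalization and to -0.091 in the unscaled table.

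The myogenic regulators moved little as a list. Of 14 tested 2 rose (14.3%) and 3 fell (21.4%), against 20.4% and 20.1% of all genes, with a median of -0.0035. *MYF5*, a factor of myoblasts and satellite cells, fell by 0.9 and follistatin, *FST*, an inhibitor of myostatin, by 0.61. *MEF2A* rose by 0.44. *CDH15* rose by 1.03 on its brightest probe, and its other probe was called lower. *MSTN* differed by -0.24 (SE 0.24, adjusted p 0.48), with levels at 210 dpc of 1.88, 1.7 and 1.48 in BA and -0.88, -0.33 and -0.83 in CH. At 260 dpc they were 1.12 and 1.49 in BA and -0.87, 0.0091 and -1.55 in CH. The BA arrays were above the CH arrays at both stages. *MYOD1* differed by -0.031 with an SE of 0.64.

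Matrix genes fell more often than they rose. Of 16 tested collagen genes 8 fell and none rose (median -0.51), and of 39 other matrix genes 25 fell and 1 rose (median -0.5). *VCAN*, the proteoglycan versican, was at -0.37 to 0.37 (median -0.12) at 210 dpc and at -2.26 and -2.23 in BA and -3, -2.83 and -2.36 in CH at 260 dpc, a 5.42-fold fall (difference -2.44, SE 0.16). *POSTN*, periostin, fell 4.49-fold. The fibrillar collagen *COL3A1* fell by 0.62, and *COL1A1* differed by -0.41 without passing. *COL1A2* fell by 0.72 and lost its call in 12 of the alternatives, among them median scaling and slide as a block. In female foetuses alone 2 collagen and 13 other matrix genes fell. Elastin, *ELN*, rose by 0.93 (adjusted p 0.033), 2 of its 6 probes were called, and it lost its call in 12 of the alternatives. The largest collagen falls were *COL11A1* (-1.84) and *COL13A1* (-1.73).

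Markers of other cells were looked at beside these groups. The only tested marker of cartilage, *COL2A1*, fell by 1.66 with summed levels of 0.901 to 3.59 at 210 dpc and 0.315 to 1.11 at 260 dpc, while *ACAN* and *COL9A1* were not tested. Of 16 fibroblast genes 4 fell (25%, near the 20.1% of all genes) and none rose, and 1 fell in female foetuses alone. Of 24 endothelial genes 11 fell and 1 rose (median -0.31), but 5 fell without slide 6, 4 fell with arrays scaled to the median and 2 fell in female foetuses alone. *PLVAP* fell by 1.23 and the VEGF receptor *KDR* by 0.93, and *VEGFA* itself rose by 0.76. The summed level of *PECAM1*, *VWF*, *CDH5* and *KDR* was 7.79 to 11.4 at 210 dpc and 6.09 to 8.78 at 260 dpc. The part of these cells in the falls of matrix and growth genes was not tested.

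The list of myoglobin, blood globins and red cell genes had 4 of 11 higher and 5 lower (median -0.072). Those higher were *MB*, *HBE1* and the carbonic anhydrases *CA2* and *CA3*, and the red cell genes *AHSP* and *HBQ1* did not pass. *HBB*, a beta globin gene, was at 1.13 to 2.23 (median 1.71) at 210 dpc and at 0.23 and -0.67 in BA and -0.82, 1.16 and -1.13 in CH at 260 dpc. Its difference was -1.96 (SE 0.4, adjusted p 0.0031), and 1 late array lay within the earlier range. *HBG*, listed as the foetal form, fell 4.69-fold, *HBA* by 1.1 and the haem enzyme of red cells *ALAS2* by 1.85, and *HBE1* rose by 0.7. The globin genes resemble each other in sequence and their probes may share RNA. The summed level of *HBA*, *HBB*, *ALAS2* and *AHSP* was 39.8 to 84.1 at 210 dpc and 23.5 to 42.6 at 260 dpc, while *SLC4A1* was not tested.

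Leukocyte genes showed no common direction, with 3 of 22 higher (13.6%) and 4 lower (18.2%), against 20.4% and 20.1% of all genes. The B cell gene *CD79A* fell by 1.17 and *PTPRC* rose by 0.43. The summed level of *PTPRC*, *CD3E*, *CD14*, *TYROBP* and *ITGB2* was 2.17 to 2.95 at 210 dpc and 2.82 to 3.15 at 260 dpc. Class I histocompatibility and interferon genes had 2 of 21 higher and 1 lower, and 9 thyroid hormone genes had 1 of each, all below the background shares. Among 18 adipocyte genes 4 rose (22.2%, near the 20.4% of all genes) and 1 fell (5.56%, against 20.1%). The summed level of *FABP4*, *PLIN1* and *CIDEC* varied between 0.196 and 0.747 at 210 dpc and between 0.276 and 4.45 at 260 dpc, and none of these 3 passed, while *ADIPOQ* was not tested.

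Nerve and Schwann cell genes had 5 of 16 lower (31.2%, against 20.1% of all genes) and 1, *MBP*, a myelin protein gene, higher. *SNAP91*, a protein of nerve endings, fell by 1.28. Smooth muscle and pericyte genes had 2 of 11 higher (18.2%) and 3 lower (27.3%), near the shares over all genes. The summed level of *MYH11*, *CNN1* and *ACTA2* was 18.1 to 44 at 210 dpc and 14.1 to 37 at 260 dpc. Tendon and cartilage genes had 1 of 8 higher (12.5%), *CHAD* (1.77), and 2 lower (25%), likewise near or below those shares.

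Genes of atrophy, glucocorticoid and fasting responses rose in 11 of 22 cases and fell in 1 (median 0.59). *TRIM63*, a ubiquitin ligase of muscle atrophy, was at 1.6 to 2.51 (median 2.05) at 210 dpc and at 3.87 and 4.16 in BA and 4.77, 4.04 and 3.89 in CH at 260 dpc. It rose 4.2-fold (difference 2.07, SE 0.19, adjusted p 4.4e-05). The metallothionein *MT2A* rose by 1.87 and *ZBTB16*, a transcription factor induced by glucocorticoids, by 1.75, both without overlap. *ANGPTL4* was the gene that fell (-0.62, adjusted p 0.044). It lost its call in 17 of the alternatives, and no gene of the list fell with median scaling or normexp correction.

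Small heat shock and chaperone genes rose in 7 of 13 cases with none lower (median 0.72). *HSPA1A* rose by 1.88 (SE 0.39), and CH replicate 3 at 210 dpc, at 4.2, lay within the late range of 4.19 to 4.81. *CRYAB* rose by 1.15. Of 27 genes of the amino acid response and the tRNA synthetases 12 rose and 1 fell, with a median of 0.38 here and -0.037 in the unscaled table, and 6 rose without slide 6. *SARS1* was at 2.25 to 2.59 (median 2.46) at 210 dpc and at 2.95 and 2.92 in BA and 3.64, 4.3 and 3.43 in CH at 260 dpc. The amino acid carrier subunit *SLC3A2* rose by 0.98 and *AARS1* by 0.97. The median of this list was 0.08 in BA and 0.67 in CH, a difference that was not tested for the list. Other lists differed too, the slow fibre list with 1.3 in BA and 0.88 in CH. No probe was called for a difference of its step between the breeds.

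**Figure D4:**
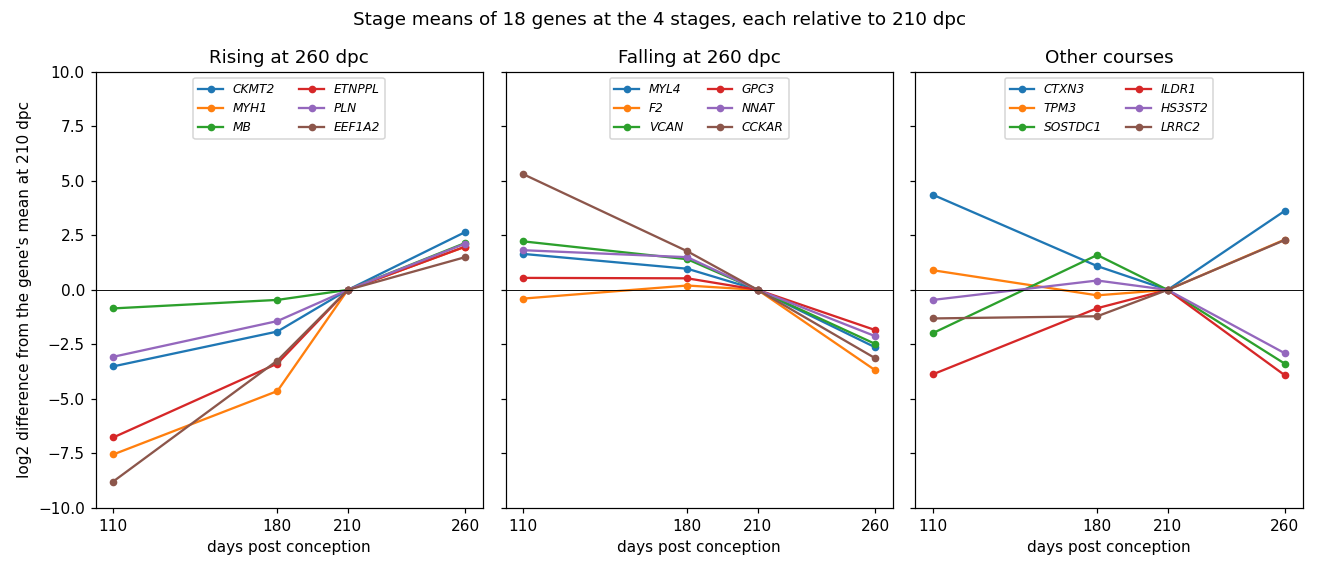
Stage means of 18 genes at 110, 180, 210 and 260 dpc (5, 5, 6 and 5 arrays) as log2 differences from the gene's own mean at 210 dpc, which is 0 in every panel. *MYH1* rose over all stages, *F2* changed little up to 210 dpc and fell after it, and *CTXN3* went down to 210 dpc and up after it. *CCKAR*, *SOSTDC1* and *ILDR1* were at or near background at 260 dpc, as were *ETNPPL*, *EEF1A2* and *ILDR1* at 110 dpc.

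Stage means over the whole course were as follows for a few genes. Those of *CKMT2* were -2.35, -0.75, 1.16 and 3.81 at the 4 stages, those of *TPM3* 5.17, 4.02, 4.27 and 6.58, and those of *GPC3* 5.86, 5.84, 5.31 and 3.47. These means share the 210 dpc arrays with the differences above and were not tested.

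The step was also fitted in each breed. In BA, with 2 arrays against 3, 2072 probes rose (6.71%) and 1832 fell (5.93%), and in CH, with 3 against 3, 4250 rose (13.8%) and 3847 fell (12.5%). Without BA replicate 2 at 260 dpc the BA counts were 366 and 313, and without CH replicate 2 at 260 dpc 2736 probes rose in CH. At an unadjusted p under 0.05 limma gave 8811 probes in BA and 11939 in CH.

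No probe was called for a difference of its step between the breeds. With 2 BA arrays at 260 dpc, this does not show that the steps were equal. The test of the difference called 0 of 30881 probes (0%), with a lowest adjusted p of 1, and 1236 had an unadjusted p under 0.05. Leaving out BA replicate 1 at 210 dpc or CH replicate 1 at 260 dpc gave 1 probe each. Among genes with 1 probe each, locus numbers left out, the lowest unadjusted p was that of the zinc transporter *SLC39A2*. It differed by -1.88 in BA and by 0.86 in CH (difference of the steps -2.74, SE 0.46, unadjusted p 0.00015, adjusted p 1). *FAM149A* (0.37 in BA, -1.21 in CH), *PNPLA4* (1.14 and -0.26), *ARHGEF26* (-0.58 and -1.71) and *ERCC6L* (-0.48 and -1.75) followed it, each with an adjusted p of 1. *ERCC6L* was well above background on none of 5 arrays at 260 dpc, and *ARHGEF26* and *SLC39A2* on 3, so their differences rest on dim spots. Some slow genes passed in each breed. *TNNC1* rose by 2.28 in BA and 2.01 in CH, and *MYH7* by 1.73 and 1.21. *MYL3* differed by 1.93 in BA and 1.57 in CH without passing in either. *CSRP3*, which rose by 0.89 over both breeds (adjusted p 0.048), differed by 1.3 and 0.57 without passing in either. Its stages overlapped, and it lost its call in 16 of the alternatives, among them slide as a block and quantile normalization.

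Slides 2, 4 and 5 held both stages, with breeds that were not balanced, and no test was made within a slide. Over all tested members the median difference on these slides was 0.69, 1.35 and 1.23 for the slow fibre list. It was 0.53, 0.8 and 0.93 for oxidative phosphorylation. For the cell cycle list it was -0.94, -0.76 and -0.91, and over all genes 0.0024, -0.018 and 0.047. The collagen medians were -1.05, -0.47 and -0.28, and those of the fibroblast list -1.05, 0.0094 and -0.091. Slides 2 and 5 each held 1 array of 210 dpc, and that of slide 2 was CH replicate 3, apart on the second principal component. With slide as a block 4980 probes rose and 4446 fell. Of the called genes, 2640 had more than 1 tested probe, and in 2438 of these (92.3%) all probes had the same sign.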

How the data were processed

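RNA was amplified, labelled with Cy3 and hybridized to single-colour bovine 4x44K arrays, 1 per foetus. The authors extracted the deposited spot intensity with Feature Extraction 10.7.3.1, with background and multiplicative detrending and no background subtraction, and took the mean of spots of a probe. The value table that the authors deposited holds log2 intensities, uncentred (column medians 8.04 to 8.64 on the 11 arrays). Of its values 99.98% lay no more than 0.01 from log2 of the spot intensity, so it carries no scaling between arrays.

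Here control spots and 258 outlier spots (21 arrays) were left out, spots of a probe were averaged, and log2 intensities were reduced by each array's 75th percentile. A probe was tested when well above background on at least 5 of the 11 arrays and measured in each of the 4 groups of breed and stage. Of 43653 probes 26628 were named through their accessions in the annotation of assembly ARS-UCD2.0, covering 12538 genes, of which 2334 were not tested. The array was designed on HGSC Btau_3.1, so no positions are given. The number of arrays limits the precision.

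The fit was limma 3.58.1 in R 4.3.3, with stage and breed as terms (residual degrees of freedom 8, prior 2.76) and Benjamini-Hochberg adjustment over 30881 probes. A mean for each of the 4 groups gave the steps by breed and their difference. Figures were drawn with matplotlib.

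The 36 gene lists (974 genes, 821 tested), the isoform pairs, the marker sets and this comparison were chosen with earlier results of these data known. Named are the 12 largest rises and falls (called, not overlapping, same sign in both breeds, with a symbol that is not a locus number), up to 2 rises and 2 falls of each list or otherwise its 2 brightest genes, the pairs, developmental genes of the study (*DNAAF9* was not analysed here), and 5 genes with the lowest p for the breed difference of the step. These were 151 genes, and 34 more were named as examples after their values were seen. *PVALB*, *TFAM*, *NRF1*, *GABPA*, *TNNT2*, *CA2* and *HBQ1* were likewise named after their values were seen and were not followed through the alternatives, and other names are members of the marker sets. A few listed genes, 1 isoform pair and 1 marker sum are not reported here.

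Same-numbered foetuses of different groups are not paired. After subtraction of group means their arrays correlated at a median of 0.026 (15 pairs, -0.13 to 0.22). Alternatives were other scalings (quantile, median, normexp with offset 50, the deposited values), 3 other filters, sex, sire, slide, scan day and replicate number as terms, females alone, all 21 arrays, other forms of the fit, the mean of a gene's probes, each array left out, and, chosen after seeing the data, slide 6 left out.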

Additional observations from a re-analysis of the deposited data

Results flagged for a closer look

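Among 185 genes named in the text or in its lists, 370 groups of arrays of 1 gene and stage were examined for an array whose gap to its neighbour was large for the group's range. There were 16 such arrays, 11 at 210 dpc and 5 at 260 dpc, and chance flags about 1 in 20 groups.

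At 210 dpc BA replicate 2 was low in *MYH1* (4.29, nearest 5.95), BA replicate 3 was low in *MRPL48* (-0.065, nearest 0.56) and in *ALAS2* (-4.06, nearest -2.08), and BA replicate 1 was high in *ACACA* (-2.28, nearest -3.59). CH replicate 1 was high in *PNPLA2* (0.62), *STAT2* (-0.29), *MBP* (0.24, nearest -0.8) and *KDR* (1.97) and low in *EEF1A1* (7.69). CH replicate 2 was low in *PTPRC* (-0.28) and high in *COX6A2* (6.17).

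At 260 dpc CH replicate 3 was high in *COQ8A* (6.41, nearest 5.68) and low in *CCDC141* (-4.44, nearest -3.35). CH replicate 1 was high in *CHRNG* (4.06, nearest 3.33) and low in *CD163* (-6.44, nearest -5.42), a gene not well above background on any late array. BA replicate 1 was high in *COL11A2* (-2.06, nearest -4.26).

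No named gene had all BA arrays moving one way and all CH arrays the other.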

How the results depend on the processing

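Of the 173 named genes that were called, 169 kept their direction under every other setting that measured them, slide 6 set apart, and 109 also stayed past the threshold. *MYL1* turned to -0.18 and *IGF2* to -0.16 under quantile normalization, where *EEF1A1*, not called in the report, fell by 0.45. In the unscaled value table *MYL1* was at -0.12, *IGF2* at -0.091, *HR* at -0.034 and *TAPBP* at -0.019. That table gave 789 probes and 270 genes higher and 9762 probes and 3377 genes lower, with a median gene at -0.41. Female foetuses alone, 6 arrays, gave 2896 probes and 1127 genes higher and 2623 and 894 lower. Without a filter the step in BA had 1246 probes higher and 1143 lower. With 1 array left out in turn, 4914 to 5644 probes were higher and 4625 to 5544 lower, 1739 to 2068 genes were higher and 1695 to 1975 lower, the step in BA had 366 to 2242 higher and 313 to 1988 lower, that in CH 2736 to 4312 higher and 2659 to 3718 lower, and 0 or 1 probe differed between the breeds. Where this left 1 BA array at 260 dpc, limma assumed that it varied like the other groups. The lowest BA counts came without BA replicate 2 at 260 dpc, and each BA array left out moved the BA counts by over 1.5 times. The replicate block gave 5751 higher and 5778 lower, and no count moved by over 1.5 times with the pairing by number, while 4 named genes lost their call. Without slide 6, an alternative chosen after the data were seen, 4752 probes were higher and 4355 lower, and 16 named genes lost their call. Dim genes are limited by background, as given beside them.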
